A study of Mus musculus with 30 samples.

Results

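Transcripts of developing T cells were measured in sorted medullary thymic epithelial cells (mTECs), the thymic stromal cells that display peripheral-tissue proteins to maturing thymocytes. The 10 genes Cd3e, Cd3d, Cd3g, Cd4, Cd8a, Cd8b1, Lck, Ptcra, Rag1 and Dntt were chosen by name as thymocyte genes. All 10 were found among the 55011 genes of the mTEChi count tables and among the 35999 gene symbols of the B6 Aire-GFP+ tables. The series compared mouse mTECs with and without Aire, the regulator that lets these cells transcribe tissue-restricted genes, and mTECs from treated or gene-deleted mice. Libraries came from 1000 sorted cells each, from female C57BL/6J mice aged 4 to 6 weeks, after digestion of the thymus and removal of CD45+ cells with magnetic beads. The mTEChi libraries form 8 groups of 2: Aire-KO and WT mice injected intraperitoneally with spermidine, Aire-KO and WT mice injected with PBS, WT mice injected with topotecan (a topoisomerase I inhibitor) or with DMSO, and mice carrying Foxn1-cre with Nfe2l2 fl/fl (called flox) or with Nfe2l2+/+ (called wt). Foxn1-cre is driven by a gene of thymic epithelium in general, so its action is not limited to mTECs, and both Nfe2l2 groups carry it. The B6 Aire-GFP+ libraries, sorted on a green reporter of Aire, comprise 2 Aire-KO and 3 WT libraries, with no injection named in the labels. The labels name no dose and no interval between injection and sort. No label ties a library to its own animal, so p-values measure the spread between these libraries.

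Thymocytes make their antigen receptor in steps. Rag1 and Rag2 cut the receptor gene segments, and the polymerase terminal transferase, encoded by Dntt, adds bases at the joins. The new receptor chain is carried to the surface by CD3 proteins, first with the pre-T-cell-receptor alpha chain (Ptcra), and signals through the kinase Lck, which binds the tails of CD4 and CD8. Cells that hold both CD4 and CD8 are the most numerous thymocytes. Which cells the RNA of these genes came from was not tested. In bulk libraries the number of cells of a type and the RNA per cell cannot be told apart.

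The promoters of 8 of the 10 genes were read from RefSeq (GRCm38.p6). Lck had 2 start sites, giving 9 windows of the 250 bases before a start. The windows of Dntt, Lck and Rag1 are shown because Dntt was called lower without Aire in both cell sets, Lck RNA was assigned to both of its starts, and Rag1 was read mainly in a few libraries. CA repeats are known to be able to adopt the left-handed Z form of DNA named in the title of the series, so CACACA and its reverse complement TGTGTG are in capitals, and all other bases are in lower case, 5′ to 3′ along the gene's strand.
Dntt, chr19:41029025-41029274, plus strand: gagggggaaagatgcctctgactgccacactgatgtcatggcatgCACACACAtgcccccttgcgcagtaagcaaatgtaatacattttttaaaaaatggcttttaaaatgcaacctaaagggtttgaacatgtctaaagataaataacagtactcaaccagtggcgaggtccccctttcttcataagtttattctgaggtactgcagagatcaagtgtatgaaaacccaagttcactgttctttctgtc
Lck distal start, chr4:129573642-129573891, minus strand: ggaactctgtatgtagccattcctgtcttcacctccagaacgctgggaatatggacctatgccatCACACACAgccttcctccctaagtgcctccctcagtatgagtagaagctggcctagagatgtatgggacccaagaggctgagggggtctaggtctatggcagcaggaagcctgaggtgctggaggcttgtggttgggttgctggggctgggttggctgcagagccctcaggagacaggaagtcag
Lck proximal start, chr4:129558373-129558622, minus strand: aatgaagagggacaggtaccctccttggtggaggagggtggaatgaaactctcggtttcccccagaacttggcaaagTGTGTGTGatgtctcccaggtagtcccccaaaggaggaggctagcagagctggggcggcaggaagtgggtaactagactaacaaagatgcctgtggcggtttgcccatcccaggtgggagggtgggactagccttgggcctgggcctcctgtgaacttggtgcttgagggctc
Rag1, chr2:101649533-101649782, minus strand: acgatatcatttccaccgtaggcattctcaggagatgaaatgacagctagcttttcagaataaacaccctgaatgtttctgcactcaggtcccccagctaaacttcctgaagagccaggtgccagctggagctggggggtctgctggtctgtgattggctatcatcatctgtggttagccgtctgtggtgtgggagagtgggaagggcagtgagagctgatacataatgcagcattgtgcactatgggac
CACACA or TGTGTG was found in 5 of the 9 windows (Dntt, both Lck windows, Cd3e and Ptcra) and in 17.9% of all 32851 RefSeq windows of the same length. CANNTG, the letters of the E-box, reads the same on both strands and was found in 8 of the 9 windows and in 66.2% of all. TATAAA, or its reverse complement TTTATA, was found in 0 of the 9 windows and in 12.4% of all. CACACA and CANNTG matches can share bases, and a match is a description of the letters only.

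Library totals were 2027205 to 5724045 counts in mTEChi and 6615295 to 12682072 estimated counts in Aire-GFP+ libraries. The epithelial marker Epcam was at 592 to 1217 CPM (counts per 1000000, with totals scaled by TMM) in every mTEChi library. The gene targeted in the Aire comparisons is a limited check of the labels. Aire was at 5075 and 4156 CPM in the Aire-KO PBS libraries, against 1621 and 1638 CPM in the WT PBS libraries, and Nfe2l2 was at 105.5 and 86.6 CPM in flox, against 90.7 and 91.4 CPM in wt. Counts over a whole gene do not show whether part of it was deleted. Ptprc, which encodes the CD45 protein used to remove leukocytes, was nevertheless read in all 21 libraries, at 7.78 to 155 CPM in mTEChi and 0.852 to 6.43 CPM in Aire-GFP+ cells.

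The 10 genes together made up a small fraction of each library, and Cd4 and Lck together gave over 50% of their counts in 18 of the 21 libraries. The exceptions were topotecan replicate 2 (38.2%), where Dntt had the most counts, and Aire-GFP+ Aire-KO replicates 1 and 2 (48.9% and 49.6%). Their summed level was 60.5 to 236 CPM across the 16 mTEChi libraries and 32.5 to 85.5 CPM across the 5 Aire-GFP+ libraries. The highest mTEChi sums were 236 CPM in DMSO replicate 1, 235 CPM in topotecan replicate 2 and 196 CPM in topotecan replicate 1, and the lowest were 60.5 CPM in flox replicate 2 and 67.3 CPM in Aire-KO PBS replicate 1. Over all 16 libraries the mTEChi tables held 2396 Cd4 counts, 1570 Lck counts and 572 Dntt counts, but 140 Rag1 counts and 115 Ptcra counts. Levels of different genes were compared per length, as TPM, transcripts per 1000000. In mTEChi the median over libraries was 30.4 TPM for Cd4, 26.5 for Lck, 8.97 for Dntt, 7.90 for Cd3d, 5.55 for Cd3g, 4.32 for Cd8b1, 3.11 for Cd8a, 2.82 for Cd3e, 0.535 for Ptcra and 0.287 for Rag1. Each neighbouring pair in that order had overlapping ranges over libraries. In Aire-GFP+ cells the order by median TPM began with Cd4 (8.03), Lck (7.87) and Ptcra (5.65) and ended with Rag1 (0.0942). Ptcra thus stood near the top in Aire-GFP+ libraries and near the bottom in mTEChi, although the 2 tables were counted in different ways and their TPM values were not tested against each other.

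**Figure D1:**
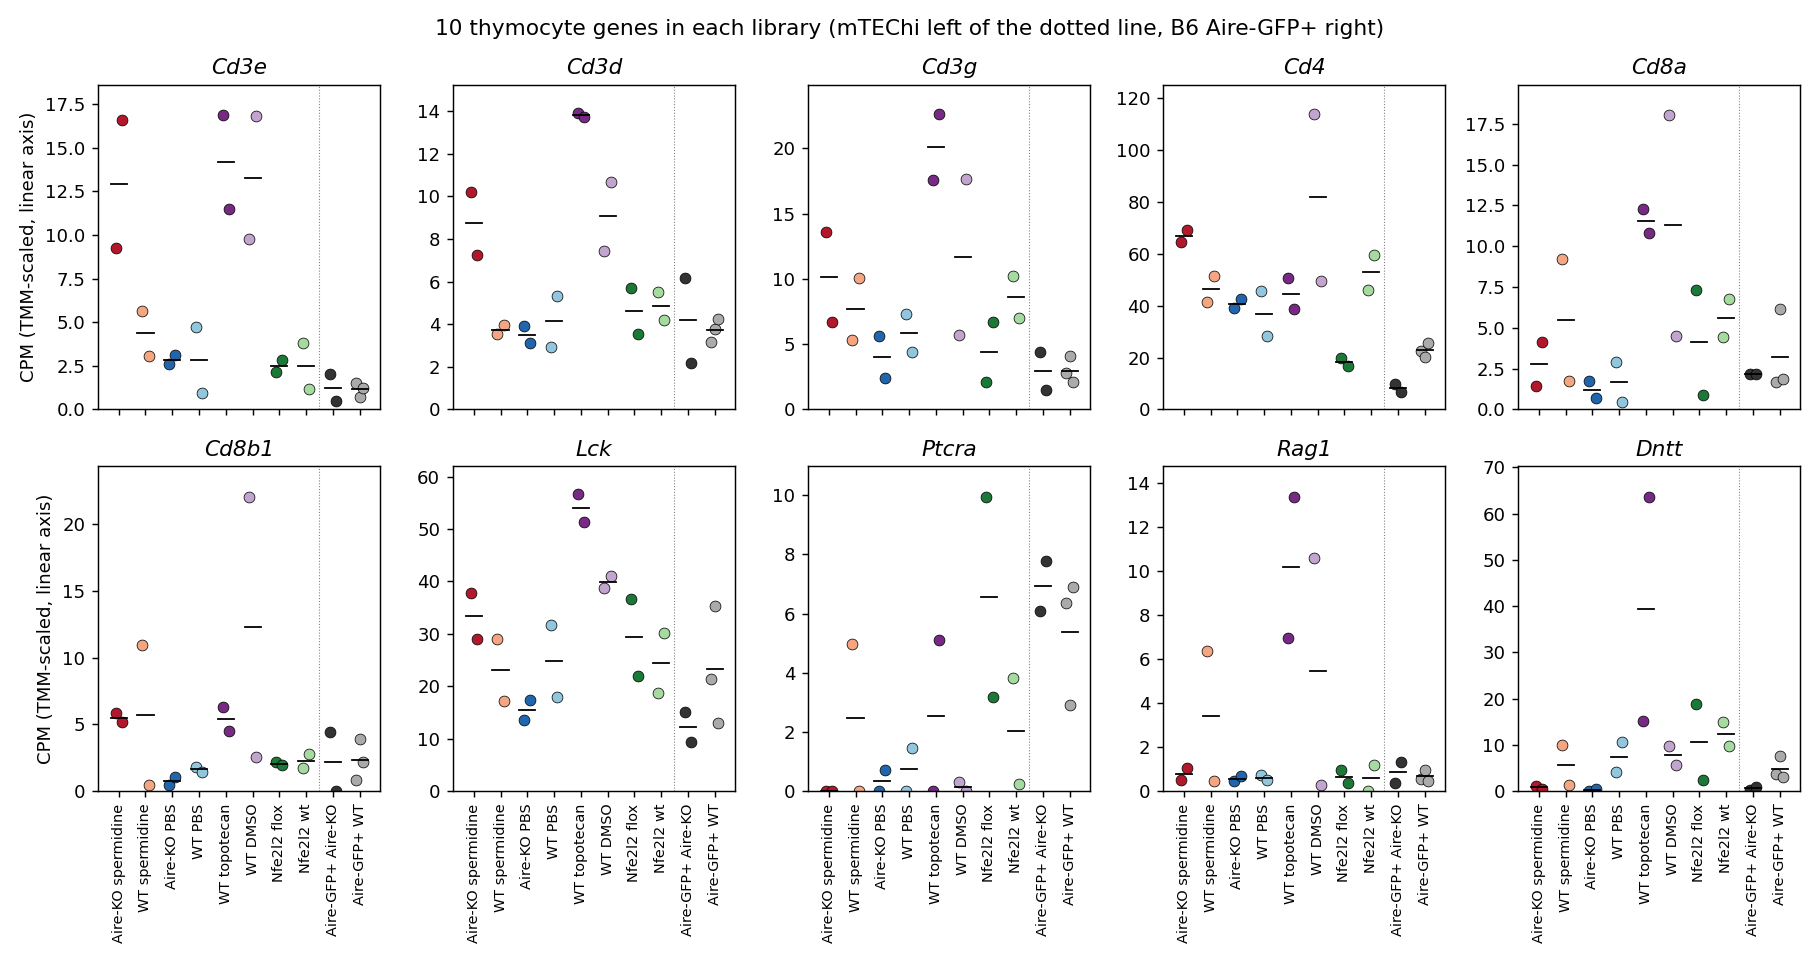
TMM-scaled CPM (linear axes starting at 0) of each gene in each library, by group; points are libraries and bars are group means. Cd4 and Lck are read in every library, Rag1 stands at 6.37 to 13.4 CPM in 4 mTEChi libraries and at 1.16 CPM or less in the other 12, and Dntt lies at 0.971 CPM or less in all 6 Aire-KO libraries.

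Cd3e, Cd3d and Cd3g encode the CD3 chains that carry receptor signals inward, and their genes lie close together on chromosome 9. They were read in every library. Cd3e ranged over 0.970 to 16.9 CPM in mTEChi and 0.473 to 2.02 CPM in Aire-GFP+ cells, Cd3d over 2.91 to 13.9 and 2.18 to 6.19 CPM, and Cd3g over 2.13 to 22.6 and 1.51 to 4.40 CPM. Their summed level was 47.8 and 48.4 CPM in topotecan libraries, against 22.9 and 45.1 CPM in DMSO libraries. It was 33.0 and 30.5 CPM in Aire-KO spermidine libraries, against 12.2 and 8.64 CPM in Aire-KO PBS libraries. Both topotecan libraries lay above both DMSO libraries, and both Aire-KO spermidine libraries above both Aire-KO PBS libraries. The Nfe2l2 groups overlapped, at 9.95 and 13.1 CPM in flox and 19.6 and 12.3 CPM in wt. In mTEChi Cd3d differed between the replicates of a group by 1.83-fold at most, while in Aire-GFP+ Aire-KO cells its replicates were at 6.19 and 2.18 CPM. Cd3g differed by more than 2-fold in 4 of the 8 mTEChi pairs. Part of Cd3e overlaps the antisense gene Gm48719 and Gm48720 on its own strand, so reads there cannot be assigned with certainty without strand.

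Cd4, Cd8a and Cd8b1 encode the coreceptors that bind class II and class I major histocompatibility proteins. Cd4 (chr6:124864692-124888221, minus strand) was at 64.6 and 69.4 CPM in Aire-KO spermidine libraries and 41.4 and 51.3 CPM in WT spermidine libraries. In PBS libraries it was at 39.1 and 42.5 CPM in Aire-KO and 45.5 and 28.1 CPM in WT. Both spermidine Aire-KO libraries lay above the WT ones, while the PBS groups overlapped. Cd4 was at 50.7 and 38.5 CPM with topotecan, against 114 and 49.6 CPM with DMSO, where DMSO replicate 1 held the highest Cd4 level of all libraries. It was at 19.7 and 16.8 CPM in flox, against 46.1 and 59.6 CPM in wt. In Aire-GFP+ cells it was at 9.64 and 6.72 CPM in Aire-KO, against 22.7, 20.2 and 25.8 CPM in WT. The flox and wt values did not overlap, nor did the Aire-GFP+ values. Cd4 is also made by some dendritic cells and macrophages, whose genes are given further on.

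Cd8a and Cd8b1, neighbouring genes on chromosome 6, encode the alpha and beta chains of the CD8 coreceptor. They were lower and more uneven than Cd4 on the CPM scale. Cd8a ranged over 0.485 to 18.1 CPM in mTEChi and Cd8b1 over 0.434 to 22.1 CPM, with the highest value of both in DMSO replicate 1. That library held 63 Cd8a and 77 Cd8b1 counts, and DMSO replicate 2 held 16 and 9. WT spermidine replicate 1 held 26 and 31 counts, and WT spermidine replicate 2 held 4 and 1. In both groups replicate 1 was the high library for both genes. In Aire-GFP+ cells Cd8b1 was at 4.40 and 0 CPM in Aire-KO, against 0.829, 3.88 and 2.17 CPM in WT, so the groups overlapped. A count of 0 in that Aire-KO library allows up to 3 counts, or 0.284 CPM. Such limits cover counting error only, since the libraries carry no molecular identifiers.

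Lck (chr4:129548344-129573641, minus strand), the kinase that starts receptor signalling, differed by at most 1.76-fold between replicates in mTEChi, the smallest such limit of the 10 genes. It was at 37.9 and 29.0 CPM in Aire-KO spermidine libraries, against 29.0 and 17.1 CPM in WT spermidine libraries. It was at 13.4 and 17.3 CPM in Aire-KO PBS libraries, against 31.7 and 17.9 CPM in WT PBS libraries. Both Aire-KO PBS libraries lay below both WT PBS libraries, while the spermidine groups overlapped. Topotecan libraries held 56.6 and 51.3 CPM, against 38.7 and 40.9 CPM in DMSO libraries, and flox libraries 36.7 and 21.9 CPM, against 18.7 and 30.2 CPM in wt. The topotecan values lay above the DMSO values, and the Nfe2l2 groups overlapped. In Aire-GFP+ cells Lck was at 15.1 and 9.37 CPM in Aire-KO and 21.3, 35.3 and 13.04 CPM in WT, with the groups overlapping.

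The distal Lck start is known from studies of mature T cells, and the proximal one from thymocytes. The kallisto estimates for the Aire-GFP+ libraries, summed over transcripts starting within 1000 bases of each RefSeq start whose promoter is printed above, assigned 127 counts to the proximal and 0 to the distal start in Aire-KO replicate 1. In Aire-KO replicate 2 they assigned 0 to the proximal and 96.2 to the distal start. In WT they assigned 102.6, 236 and 35.5 counts to the proximal start, beside 51.4, 160 and 102.5 to the distal one. The split thus went all one way in one Aire-KO library and all the other way in the other. The error of the split was not analysed here.

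Ptcra (chr17:46755663-46763712, minus strand), the partner of the first receptor beta chain in early thymocytes, was read in 9 of the 16 mTEChi libraries. Its counts were 42 and 18 in flox, against 18 and 1 in wt. They were 0 and 16 with topotecan, against 1 and 0 with DMSO. They were 0 and 0 in Aire-KO spermidine libraries, against 14 and 0 in WT spermidine libraries, and 0 and 2 in Aire-KO PBS libraries, against 0 and 3 in WT PBS libraries. The high libraries were spread over 4 groups, and 11 of the 16 libraries held 3 counts or fewer. In Aire-GFP+ cells Ptcra was steadier, at 6.07 and 7.76 CPM in Aire-KO, against 6.36, 2.91 and 6.90 CPM in WT, and the groups overlapped. Ptcra lies inside the long noncoding gene Gm26904 of the other strand, so its reads cannot be separated from that gene without strand.

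Rag1 (chr2:101638282-101649501, minus strand), the catalytic subunit of the recombinase, was at 3 counts or fewer in 10 of 16 mTEChi libraries. It was read most in topotecan replicates 1 and 2 (21 and 42 counts), DMSO replicate 1 (37 counts) and WT spermidine replicate 1 (18 counts). DMSO replicate 2 and WT spermidine replicate 2 held 1 count each. The 2 last named high libraries are the ones that stood out for Cd8a and Cd8b1. In Aire-GFP+ cells Rag1 was at 0.357 and 1.32 CPM in Aire-KO, against 0.553, 0.970 and 0.472 CPM in WT. Rag1 shares bases with B230118H07Rik on the same strand, so some of its reads may be counted with either gene.

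Dntt (chr19:41029275-41059525, plus strand), the template-independent polymerase whose promoter is shown above, was lower in Aire-KO libraries of both cell sets. In PBS libraries it was at 0 and 0.345 CPM in Aire-KO, against 4.00 and 10.7 CPM in WT. In spermidine libraries it was at 0.971 and 0.518 CPM in Aire-KO, against 9.91 and 1.31 CPM in WT. In Aire-GFP+ cells it was at 0.238 and 0.946 CPM in Aire-KO, against 3.59, 7.58 and 2.93 CPM in WT. No Aire-KO library reached the lowest WT library of its cell set. The 4 Aire-KO mTEChi libraries held 0, 1, 2 and 1 counts, and WT spermidine replicate 2, the lowest of the WT libraries, held 3. In the other mTEChi libraries Dntt was at 15.2 and 63.7 CPM with topotecan, against 9.75 and 5.61 CPM with DMSO. It was at 18.7 and 2.30 CPM in flox, against 14.9 and 9.77 CPM in wt. Topotecan replicate 2, with 200 counts, was far above every other library.

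The first comparison asked how these genes differ without Aire. In Aire-GFP+ cells, 2 of the 10 genes fell by edgeR's quasi-likelihood test with Benjamini-Hochberg adjustment over all genes tested. Cd4 fell by 1.49 on the log2 scale (SE 0.256, adjusted p = 0.00277) and Dntt by 2.93 (SE 0.786, adjusted p = 0.0188), and 0 rose. Dntt held 2 and 10 counts in Aire-KO and 26, 86 and 31 in WT libraries. It passed the filter on low counts through the WT libraries, so the direction of its call was not open. Over all 17923 genes tested, 41.3% were called, 22.3% lower and 19% higher in Aire-KO cells, so a count of 2 of 10 is close to the share that fell. At an unadjusted p under 0.05 the same count was 2, where 50.5% of all genes passed. DESeq2 and limma-voom called 2 of 10 each, where they called 43.9% and 38.2% of all genes. The median log2 change was -0.06 over the 10 genes and -0.12 over all genes tested. The median of the 10 was unsteady, at -1.09 (all genes -0.19) without Aire-KO replicate 1, -0.50 with the replicate block and -0.51 with an offset for effective length. Library totals in place of TMM moved the 10 and all genes together, to -0.45 and -0.51. The summed Dntt counts were 12 in Aire-KO and 143 in WT libraries, an Aire-KO-to-WT ratio of 0.129 after library scaling (95% exact interval 0.0651 to 0.232, for counting error only). Lck had a log2 change of -0.93 (SE 0.418, adjusted p = 0.108). The Cd3 genes had changes of 0.11 (Cd3e), 0.15 (Cd3d) and -0.02 (Cd3g), with adjusted p-values of 0.85 to 0.985. The Dntt call was lost without Aire-KO replicate 1 (adjusted p = 0.0814) and without WT replicate 2 (adjusted p = 0.055), and Cd4 was called in each of the 5 fits that left out a library. Ptprc also fell, by 2.06 (adjusted p = 0.016), and was at 2.02 and 0.852 CPM in Aire-KO, against 5.81, 5.64 and 6.43 CPM in WT. Its part in the Cd4 and Dntt results was not tested.

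In mTEChi, averaged over both injections, 1 of the 10 genes fell and 0 rose. Over all 18418 genes tested, 22.8% were called, 12.5% lower and 10.3% higher, so 1 of 10 is close to the share that fell. DESeq2 called 1 of 10 and 22.8% of all genes, limma-voom 0 of 10 and 14.9%, and 1 of 10 and 35.1% passed an unadjusted p under 0.05. Dntt fell by 3.93 on the log2 scale (SE 1.07, adjusted p = 0.0171). Because the Aire-KO libraries hold so few counts, the ratio of summed counts is given as well. Its interval covers counting error only and leaves out the spread between libraries. With 4 counts in Aire-KO and 64 in WT it was 0.0674 after library scaling (95% exact interval 0.0178 to 0.181). Within PBS libraries alone the Dntt ratio was 0.028 (0.000689 to 0.167) and the adjusted p was 0.066. There edgeR called 0 of the 10 genes and 10.3% of all genes (5.21% higher, 5.08% lower), DESeq2 1 of 10 and 11.8%, limma-voom 0 of 10 and 5.8%, and 1 of 10 and 25.1% passed an unadjusted p under 0.05. Within spermidine libraries alone the ratio was 0.124 (0.0242 to 0.397) and the adjusted p was 0.227. Of the 31 Dntt counts in WT spermidine libraries, 28 were in replicate 1. There edgeR called 0 of the 10 genes and 9.11% of all genes (4.77% higher, 4.34% lower), DESeq2 0 of 10 and 10.4%, limma-voom 0 of 10 and 4.54%, and 2 of 10 (Cd3d and Cd3e, both with a change above 0) and 23.6% passed an unadjusted p under 0.05. The call over both injections was lost without Aire-KO PBS replicate 1 (adjusted p = 0.0635), without Aire-KO spermidine replicate 2 (0.0588), without WT PBS replicate 2 (0.0528) and without WT spermidine replicate 1 (0.162). It was also lost with limma-voom (0.316). All 10 genes passed the filter on low counts over the 16 libraries, and Dntt did so through libraries other than Aire-KO.

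Cd4, called lower in Aire-GFP+ Aire-KO cells, was not called in mTEChi, where its log2 change over both injections was 0.34 (SE 0.239, adjusted p = 0.345). The difference between the cell sets was not tested, since they were counted in different ways. The Cd3 genes had changes of 0.74 (Cd3e, SE 0.511), 0.50 (Cd3d, SE 0.371) and -0.08 (Cd3g, SE 0.490), with adjusted p-values of 0.325 to 0.93. Ptcra held 2 counts in all 4 Aire-KO libraries and 17 in all 4 WT libraries, of which 14 were in WT spermidine replicate 1, and Rag1 held 6 and 22, of which 18 were in that same library. Neither was called (adjusted p = 0.29 for Ptcra and 0.568 for Rag1). Ptprc had a change of -0.43 (SE 0.229, adjusted p = 0.198), so in mTEChi the leukocyte gene was not called while Dntt was. Whether the changes of Dntt and Ptprc differ was not tested.

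**Figure D2:**
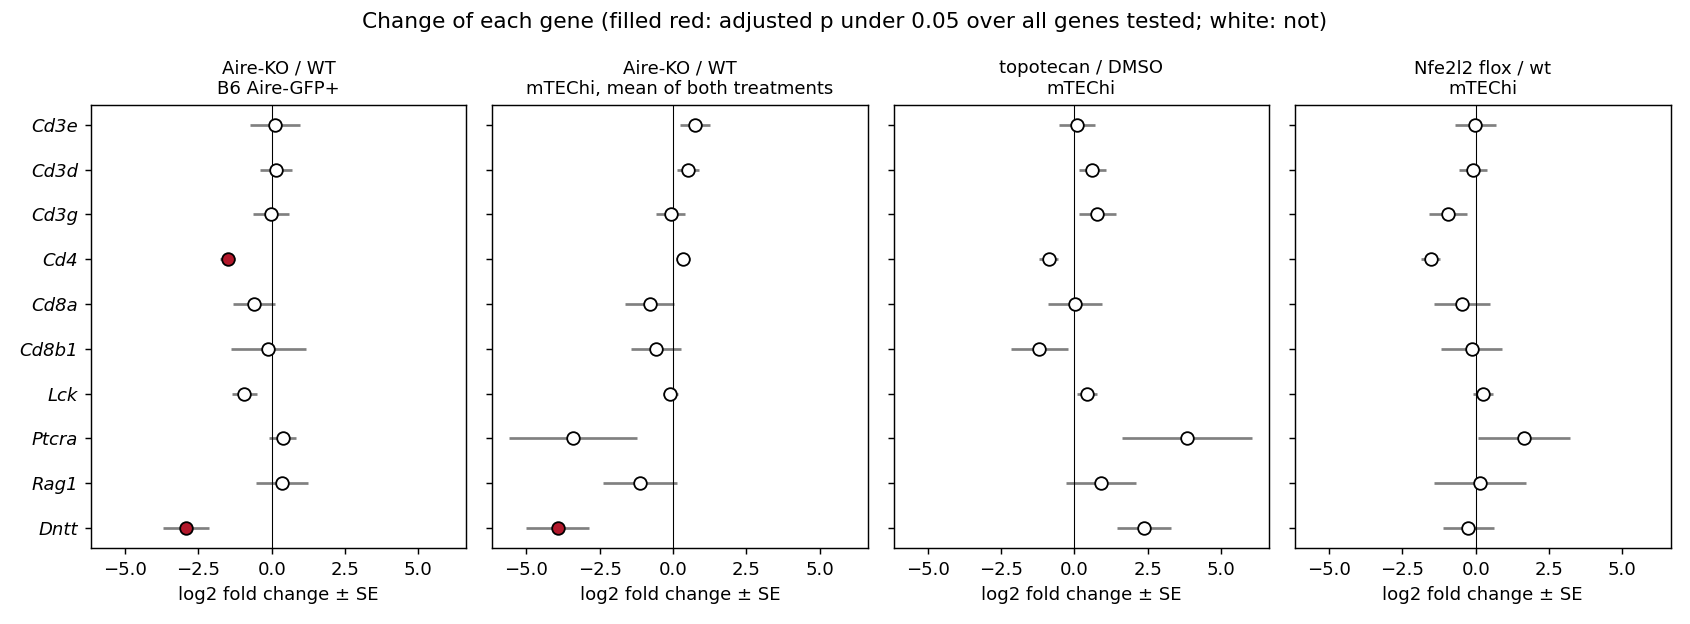
Log2 fold change with its standard error for each gene in 4 comparisons; red points have an adjusted p under 0.05 over all genes tested. Cd4 (-1.49) and Dntt (-2.93) are red in Aire-GFP+ cells, and Dntt alone (-3.93) in mTEChi; the values of Ptcra and Dntt in mTEChi Aire-KO rest on 2 and 4 counts and depend on the fit's prior count.

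Spermidine, a natural polyamine, was compared with PBS within each genotype. In Aire-KO cells the summed level of the 10 genes was 144 and 140 CPM with spermidine, against 67.3 and 71.9 CPM with PBS. In WT cells it was 126 and 89.4 CPM with spermidine, against 102 and 71.3 CPM with PBS. The Aire-KO libraries separated by treatment and the WT libraries overlapped. None of the 10 genes was called in either genotype by edgeR's quasi-likelihood test, where 0.00543% of all genes were called in Aire-KO cells and 0% in WT cells. At an unadjusted p under 0.05 the count was 4 of 10 in Aire-KO cells, where 4.12% of all genes passed it, and 0 of 10 in WT cells, where 3.85% did. The 4 were Cd3e (2.15 on the log2 scale), Cd8b1 (2.80), Cd3d (1.31) and Lck (1.11), each with an adjusted p of 1. DESeq2 and limma-voom called 0 of 10 in each genotype, where they called 0.0434% and 0.00543% of all genes in Aire-KO cells and 0% in WT cells. In Aire-KO cells Ptcra, Dntt and Rag1 were at 3 counts or fewer in each library. The median change of the 8 genes other than Ptcra and Dntt, which still include Rag1, was 1.26. Over the same 8 genes it was 0.47 in WT cells. The test of the difference between the genotypes called 0 of 10 genes, with 1 (Lck, 1.22) at an unadjusted p under 0.05, where edgeR called 0% of all genes and 3.36% passed unadjusted. DESeq2 and limma-voom called 0 there too, and 0.0163% and 0.00543% of all genes. Ptprc moved alongside, at 50.03 and 65.8 CPM with spermidine, against 28.6 and 24.9 CPM with PBS in Aire-KO cells (1.11 on the log2 scale, unadjusted p = 0.00461, adjusted p = 1). Other lists had medians of the same size there, 1.36 over 4 endothelial genes (Cdh5 2.62, unadjusted p = 0.00842, adjusted p = 1) and 1.16 over 6 fibroblast genes, with 0 called in either. The endothelial genes summed to 66.8 and 79.7 CPM with spermidine, against 36.9 and 53.2 CPM with PBS, and the fibroblast genes to 151 and 172 CPM, against 165 and 194 CPM. Their part in the result was not tested.

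With topotecan none of the 10 genes was called against DMSO, where 0.652% of all genes were (0.195% higher, 0.456% lower). DESeq2 and limma-voom also called 0 of the 10, and 2.25% and 0.326% of all genes. At an unadjusted p under 0.05, Dntt had a change of 2.36 (SE 0.918, adjusted p = 0.265) and Cd4 one of -0.87 (SE 0.324, adjusted p = 0.242), and 13.9% of all genes passed that limit. The Dntt value came to 0.98 without topotecan replicate 2, and the Cd4 value came to -0.16 (adjusted p = 0.881) without DMSO replicate 1, the library with the most Cd4. Without DMSO replicate 2 Cd4 was called (-1.39, adjusted p = 0.0429). Libraries of this experiment, treated or not, held the 3 highest sums of the 10 genes, and DMSO replicate 2 came next with 149 CPM. Ptprc was at 155 and 145 CPM with topotecan, against 54.8 and 107 CPM with DMSO, with a log2 change of 0.89 (adjusted p = 0.19). Its part was not tested.

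Nfe2l2 encodes a transcription factor of the oxidative stress response. Between flox and wt none of the 10 genes was called by edgeR, where 0% of all genes were. Cd4 had a change of -1.54 (SE 0.335, unadjusted p = 0.000405, adjusted p = 0.353), lower in both flox libraries than in both wt libraries. It was the 1 gene of the 10 at an unadjusted p under 0.05, a limit that 5.28% of all genes passed. DESeq2 called Cd4 (adjusted p = 0.0134) and 0.141% of all genes, and limma-voom called 0 of the 10 and 0% of all genes. Ptprc was at 7.82 and 7.78 CPM in flox, against 15.3 and 8.61 CPM in wt. Its part in the Cd4 values was not tested. The summed level of the 10 genes was 105.5 and 60.5 CPM in flox, against 109 and 123 CPM in wt.

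Other genes of the T-cell pathway were read in the same libraries. Of 17 listed genes of the receptor complex and its signalling, 16 were tested in Aire-GFP+ cells. There Cd6, a surface regulator of T-cell activation, rose by 1.32 (adjusted p = 0.0124) and 0 fell, beside 19% of all genes called higher and 22.3% lower. The list's median change was -0.36, against -0.12 over all genes. In mTEChi over both injections all 17 were tested, Cd6 again rose, by 1.17 (adjusted p = 0.0409), and 0 fell, with a median of 0.10 against -0.05. Of all genes, 10.3% were called higher there and 12.5% lower. The receptor constant-region genes Trac, Trbc1 and Trbc2 had changes of 0.05, 0.02 and 0.10 there, none called. Of these 17 genes 0 were called for spermidine, topotecan or Nfe2l2, where at most 0.652% of all genes were. As with the CD3 genes, their summed level was higher in topotecan than in DMSO libraries and in Aire-KO spermidine than in Aire-KO PBS libraries, at 247 to 255 CPM with topotecan against 180 to 204 with DMSO, and at 196 to 201 CPM in Aire-KO spermidine against 98.8 to 108 CPM in Aire-KO PBS libraries.

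Of 6 listed genes of CD4 and CD8 double-positive thymocytes, 5 were tested in Aire-GFP+ cells. There Arpp21 fell by 2.05 (adjusted p = 0.0163) and Ccr9, a chemokine receptor of thymocytes, by 1.55 (adjusted p = 0.0174), and 0 rose. Of all genes tested there, 22.3% were called lower and 19% higher. In mTEChi Cd1d1, which presents lipids, fell by 0.60 (adjusted p = 0.00415), and Arpp21 and Ccr9 had changes of -0.89 and 0.54, not called. Over both injections 12.5% of all genes were called lower in mTEChi and 10.3% higher. Of 8 listed partners of V(D)J recombination, 7 were tested. Xrcc4, a DNA end-joining factor, rose in Aire-GFP+ cells by 1.41 (adjusted p = 0.00023), beside 19% of all genes called higher. None of the 7 was called in mTEChi over both injections, where 22.8% of all genes were, with a median change of -0.18. Rag2, the partner of Rag1, was at 0 in 4 mTEChi libraries and at 6.63 CPM at most.

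Of 13 transcription factors of the T lineage, 3 rose and 4 fell in Aire-GFP+ cells, and 2 rose and 1 fell in mTEChi over both injections, beside 41.3% and 22.8% of all genes called. Tcf7 rose in both cell sets (1.58 and 1.48 on the log2 scale, adjusted p = 0.000323 and 5.41e-05) and Id3 fell in both (-1.38 and -1.87, adjusted p = 0.016 and 1.73e-06). These factors are not particular to T cells, and their summed level was 500 to 876 CPM in mTEChi, above the sum of the 10 thymocyte genes in every library. Of 7 listed genes of leukocytes in general, 4 rose and 2 fell in Aire-GFP+ cells and 3 rose and 1 fell in mTEChi, beside the same shares of all genes. Rac2 and Cd52, both found in most leukocytes, were among those that rose in both cell sets, opposite in direction to Ptprc.

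Markers of other cells were read in the same libraries. The 10 dendritic-cell and macrophage genes summed to 1140 to 1910 CPM in mTEChi, of which Lyz2 alone gave 882 to 1444 CPM, and the 7 erythroid genes to 35.5 to 345 CPM. Itgax, a dendritic-cell integrin, ranged over 0.884 to 32.2 CPM. Hbb-bs, a globin gene, was at 0 in 1 mTEChi library and at 218 CPM at most. The 6 fibroblast genes summed to 140 CPM in one topotecan library and 1350 CPM in the other, against 325 and 712 CPM in the DMSO libraries. In Aire-GFP+ cells the dendritic-cell and macrophage genes summed to 2200 to 2210 CPM in Aire-KO and 1060 to 1450 CPM in WT. Lyz2 alone was at 889.5 to 2135 CPM across these libraries. There 2 of the 9 genes tested rose and 4 fell, beside 19% of all genes called higher and 22.3% lower. The list's median log2 change was -1.28, against -0.12 over all genes. In mTEChi over both injections 1 of 10 rose, beside 10.3% of all genes called higher. The part of such cells in the levels of the 10 genes was not tested.

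Covariation asked whether the 10 genes move together between libraries, as log2(CPM + 0.5) over the 16 mTEChi libraries. Each library passed through the same sort and amplification, and the libraries come from 3 experiments. Of the 45 pairs, 13 had a Pearson correlation at an adjusted p under 0.05 by permutation (100000 permutations, 55 relations adjusted together). The permutations, here and below, moved values over all libraries without regard to group or experiment. Their p-values therefore also take in differences between groups and experiments, and do not measure covariation within a group. Pairs of either sign are counted, here and in the counts below. Cd4 with Ptcra, alone among the 13, had a coefficient below 0. Rag1 and Ptcra are mostly at 3 counts or fewer, split into a few high libraries and a low cluster, so no pooled coefficient is given for their 17 pairs. Of the 28 pairs of the other 8 genes, 9 passed by Pearson and 4 by both Pearson and Spearman. Lck with Cd3d had r = 0.74 (permutation p = 0.00133, adjusted 0.0172) and rho = 0.71 (permutation p = 0.00257, adjusted 0.0374). Lck with Cd8a had r = 0.72 (permutation p = 0.00202, adjusted 0.0172) and rho = 0.71 (permutation p = 0.00272, adjusted 0.0374). Lck with Cd8b1 had r = 0.70 (permutation p = 0.00195, adjusted 0.0172) and rho = 0.77 (permutation p = 0.0006, adjusted 0.0209). The chains of CD8, Cd8a and Cd8b1, had r = 0.70 (permutation p = 0.0025, adjusted 0.0172) and rho = 0.70 (permutation p = 0.00348, adjusted 0.0383). Lck thus stands in 3 of the 4 pairs. Without the 2 libraries farthest from the median of the gene on the x axis, r was 0.57, 0.64, 0.85 and 0.68 in that order. Cd8a and Cd8b1 were at 3 counts or fewer in 3 and 4 libraries.

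The number of pairs that passed depended on the topotecan libraries. Without topotecan replicate 1 the count was 3 of 45 and without replicate 2 it was 8, and without both it was 0, an alternative chosen after seeing the data. The coefficients of the 4 pairs moved less, to 0.57, 0.62, 0.71 and 0.68 over the remaining 14 libraries. The count was also 0 of 45 without the 4 DMSO and topotecan libraries. Within the 8 libraries of the Aire and spermidine experiment, the only one with 6 or more libraries, 0 of 45 pairs passed by exact permutation, and r was above 0 in 33 of them. For the 4 pairs above, r was there 0.45, 0.50, 0.83 and 0.65, with exact permutation p of 0.267, 0.203, 0.0195 and 0.081 before adjustment. After taking out the group means, 0 of 45 pairs passed. That test flipped the signs of the 8 replicate differences. Its smallest possible p is too large for a single pair to pass adjustment over 55 relations. Nothing is therefore concluded from this 0. Over the 8 replicate differences, r was -0.20 for Lck with Cd3d and 0.61 for Lck with Cd8a. It was 0.47 for Lck with Cd8b1 and 0.63 for Cd8a with Cd8b1. For Cd3e with Cd3d, given next, it was -0.36. The pooled coefficients of Cd3d with Lck and with Cd3e were thus not seen between replicates. Whether these values differ from the pooled ones was not tested. Cd3e and Cd3d, whose proteins pair with each other, had r = 0.71 over 16 libraries (permutation p = 0.00229, adjusted 0.0172, rho = 0.60, p = 0.0162, adjusted 0.0638) and 0.48 in the Aire experiment (exact permutation p = 0.236). Cd3e with Cd4 had the highest r within that experiment, 0.91 (exact permutation p = 0.00327, adjusted 0.18), and 0.50 over the 16 libraries (permutation p = 0.0479, adjusted 0.117, rho = 0.48, p = 0.0628).

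**Figure D3:**
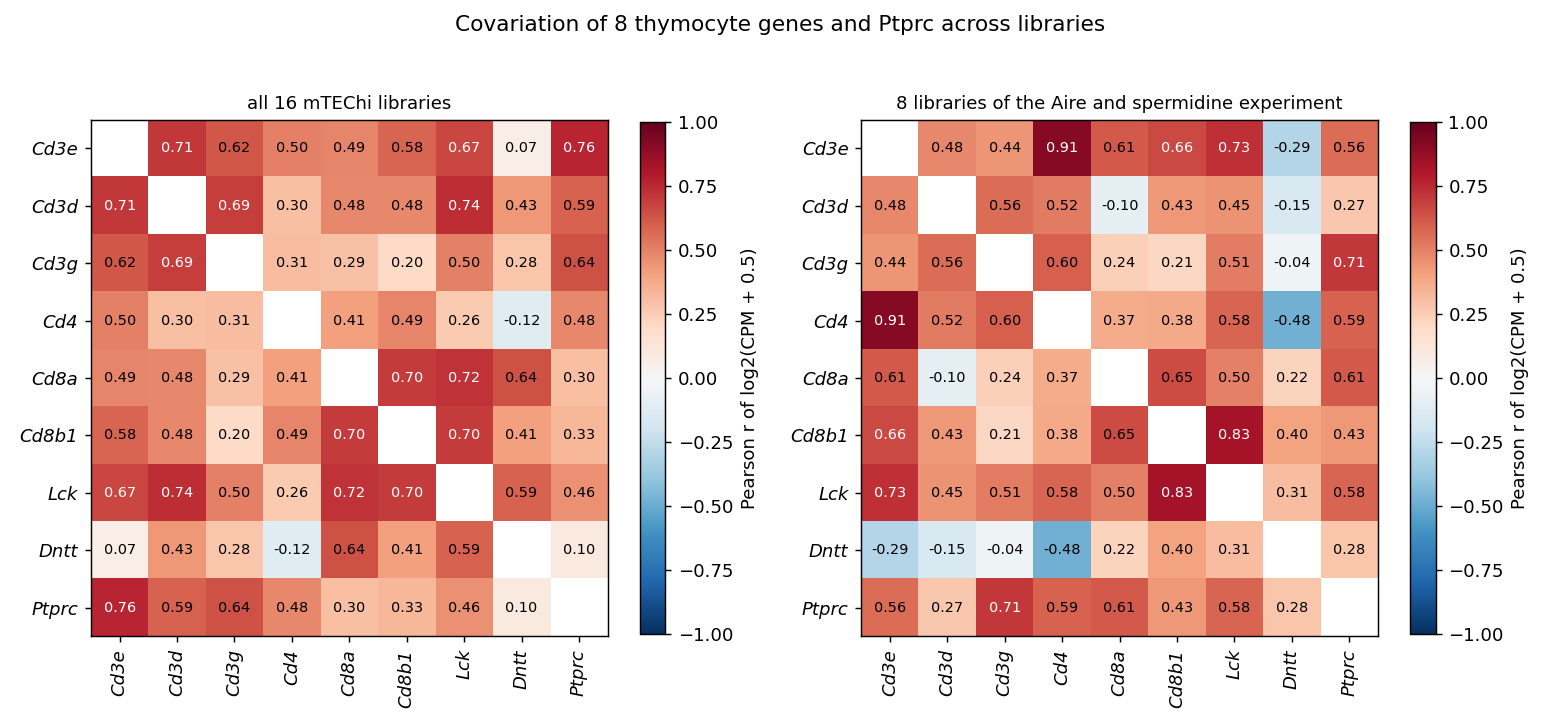
Pearson r of log2(CPM + 0.5) between 8 thymocyte genes and Ptprc, over all 16 mTEChi libraries (left) and over the 8 libraries of the Aire and spermidine experiment (right); Rag1 and Ptcra are left out as sparse. On the left Cd3e with Ptprc is darkest (0.76) and the 4 pairs named above lie at 0.70 to 0.74, while Dntt is pale against Cd3e and Ptprc (0.07 and 0.10).

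Ptprc was set beside the 10 genes after the data had been seen, as the gene of the protein the depletion was aimed at. Cd3e followed Ptprc over the 16 libraries (r = 0.76, permutation p = 0.00099, adjusted 0.0172, rho = 0.78, p = 0.00076, adjusted 0.0209), with r = 0.67 without the 2 farthest libraries and r = 0.56 in the Aire experiment (exact permutation p = 0.149). Cd3g also passed by Pearson (r = 0.64, permutation p = 0.00802, adjusted 0.0339, rho = 0.59, p = 0.0192, adjusted 0.0703), with r = 0.45 without the 2 farthest libraries. The other 8 genes did not pass, Cd3d with r = 0.59 (permutation p = 0.0162, adjusted 0.0558), Cd4 with 0.48, Lck with 0.46, Cd8b1 with 0.33 and Cd8a with 0.30 among them. Dntt had the coefficient nearest 0 (r = 0.10, permutation p = 0.7, adjusted 0.754, rho = 0.13, p = 0.622), with r = 0.02 without the 2 farthest libraries and 0.28 in the Aire experiment (exact permutation p = 0.486). Dntt with Cd3e gave r = 0.07 (permutation p = 0.791, adjusted 0.809, rho = 0.06, p = 0.816), with -0.03 without the 2 farthest libraries and -0.29 in the Aire experiment (exact permutation p = 0.493). A p above the threshold at 16 libraries does not show that the genes are unrelated, and the difference between the coefficients was not tested. With Cd8a, Dntt gave r = 0.64 (permutation p = 0.00888, adjusted 0.0349, rho = 0.62, p = 0.0126, adjusted 0.0574), but 0.22 in the Aire experiment (exact permutation p = 0.601).

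**Figure D4:**
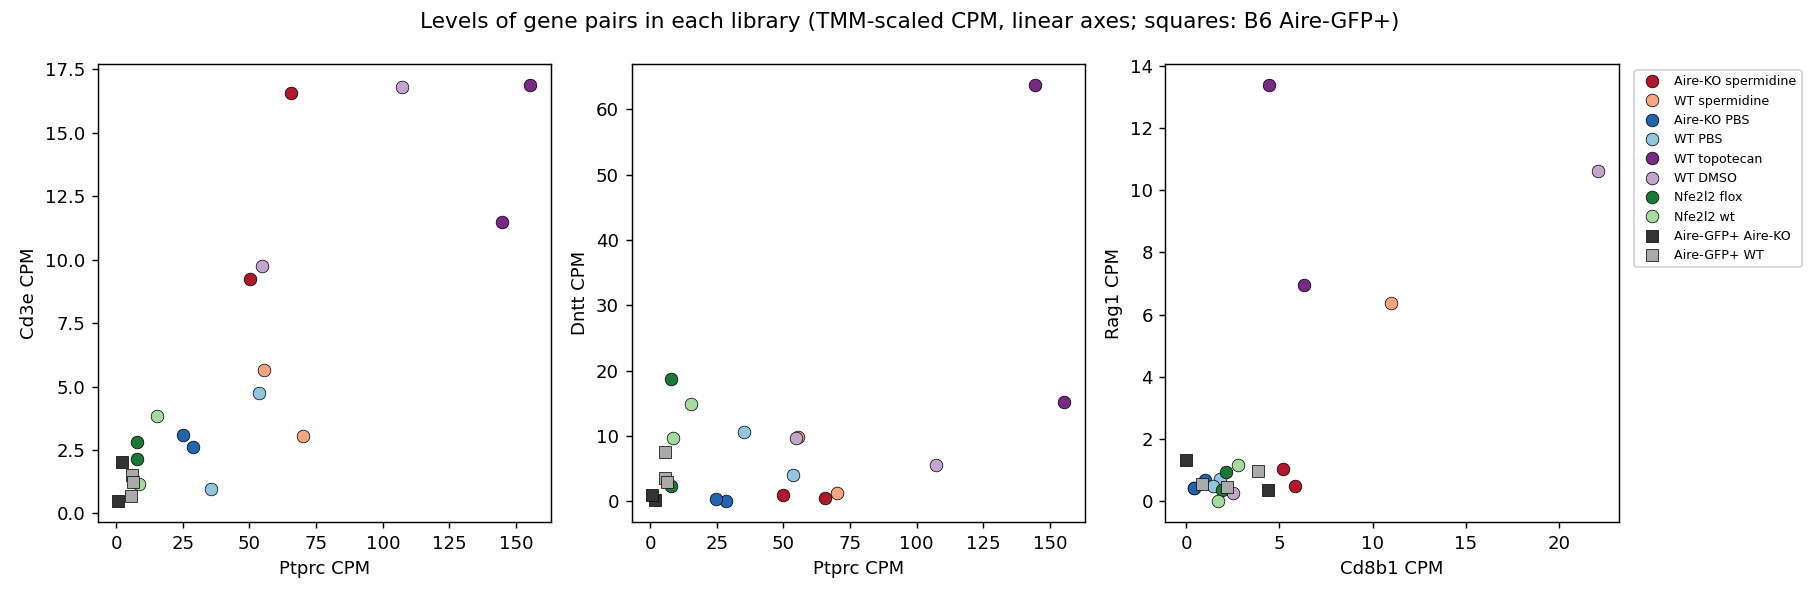
CPM of Cd3e against Ptprc, Dntt against Ptprc and Rag1 against Cd8b1 in each library (linear axes; circles are mTEChi, squares Aire-GFP+ libraries). The libraries with the most Ptprc, topotecan replicates 1 and 2 at 155 and 145 CPM, are among the highest for Cd3e, Dntt spans 15.2 to 63.7 CPM in those same libraries, and 4 libraries stand away from the rest in Rag1.

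The genes most like the summed level of the 10 over the 16 mTEChi libraries were ranked by Pearson r among 20422 genes with a mean of 1 CPM or more. Lat, the membrane adaptor downstream of the receptor, was first with r = 0.91, and Trbc2, a constant-region gene of the receptor beta chain, was eighth with r = 0.86. The other 8 of the first 10 were Dicer1 (0.90), Akirin2 (0.89), Cd226 (0.88), Vmn1r184 (0.87), Gm34354 (0.86), Mmp2 (0.86), Rnf150 (0.85) and Zfp664 (0.85), of which 0 are in the other lists. Lat was at 15.9 and 21.7 CPM in topotecan libraries, against 14.3 and 14.6 CPM in DMSO libraries, and at 2.43 to 10.7 CPM in the other 12. Of the 17 genes of the receptor and its signalling, 7 ranked in the first 1000, with a median r of 0.55, from -0.08 for Cd247 (the zeta chain of the receptor) to 0.91 for Lat. Of the 6 double-positive genes, 3 did (Ccr9, Arpp21 and Tespa1), with a median r of 0.56, from -0.17 for Cd1d1 to 0.74 for Ccr9. The 13 T-lineage factors had a median r of 0.21, from -0.62 to 0.73, with 3 in the first 1000. The 8 V(D)J partners had a median r of 0.12, from -0.60 to 0.70, with 1 in the first 1000. For the 10 dendritic-cell and macrophage genes the median was 0.21, with 2 in the first 1000. The first 1000 were taken from all 20422 genes ranked. The 6 fibroblast genes had a median r of 0.55, with 1 in the first 1000, and the 4 endothelial genes one of 0.40, with 1 in the first 1000 (Cdh5, 0.78). The 7 general leukocyte genes had a median r of 0.35, from -0.65 for Cd52 to 0.60 for Ptprc, with Laptm5 at -0.64 and Rac2 at -0.54. The 13 mTEC genes had a median r of -0.50. The ranking describes these 16 libraries and has no test.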

How the data were processed

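The mTEChi values are raw counts per gene deposited by the authors; the submitters' processing notes name STAR, featureCounts, TopHat2 2.1.1, SAMtools 1.3.1, kallisto and build mm10, without roles. The Aire-GFP+ values are estimated counts per transcript with TPM, deposited by the authors as kallisto output. Of 118489 B6 transcripts, 116816 matched GENCODE M21 by ID and were summed to symbols and rounded; the 1673 others hold 0.541 to 0.578% of counts. NOD libraries, whose transcripts were not matched to gene names, and libraries without a file were not analysed here. Per the labels, RNA was amplified by Smart-seq2 with Nextera XT, a protocol that does not mark strand and carries no molecular identifiers.

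Each table was fitted whole with edgeR 4.0.16 (quasi-likelihood, TMM, filterByExpr) in R 4.3.3, with a mean per group over all 16 mTEChi libraries or all 5 Aire-GFP+ libraries, and Benjamini-Hochberg adjustment over all genes tested; calls are at adjusted p under 0.05. CPM used TMM-scaled totals. For mTEChi, TPM was computed from counts and exon-union lengths of GENCODE M21; for Aire-GFP+ cells the authors' deposited TPM was summed. Correlations used log2(CPM + 0.5), with 100000 permutations, or all 40320 pairings for 8 libraries (scipy 1.17.1). Count ratios have 95% exact binomial intervals, for counting error only.

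The members and lists were chosen with earlier results of these data known. Besides the 10 members, the text names Aire, Nfe2l2 and Epcam, list genes called in a comparison or highest in their list, and the 10 genes most like the summed level; Ptprc, Rag2, Tespa1, Itgax, Hbb-bs, Cdh5 and Cd247 were named after their values were seen. Alternatives were library totals, RLE size factors, no filter, DESeq2 1.42.0, limma-voom (limma 3.58.1), a replicate block, an effective-length offset, single experiments and leaving out each library. On simulated data made from these libraries with 200 changed genes, the fit recovered 60.5% at a fold of 4 and 67% at a fold of 8 for PBS mTEChi (18418 genes), and 67% and 82% for Aire-GFP+ cells (17923 genes). False calls numbered 4 and 7 for PBS mTEChi and 9 and 10 for Aire-GFP+ cells. No recovery rate was computed for the 10 genes or for genes with as few counts. Same-numbered libraries of different groups did not deviate together (correlations of replicate differences from -0.05 to 0.04 in mTEChi and -0.03 to 0.03 in Aire-GFP+ cells). Between replicates of a group the chi-square statistic divided by its degrees of freedom was 3.05 to 19.7, above counting error alone.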

Additional observations from a re-analysis of the deposited data

How the results depend on the processing

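Counts of the 10 genes called changed as follows. Shares of all genes called are given above for the main edgeR fit, DESeq2 and limma-voom, and not for the other fits. Counts from those other fits describe the calls only and are not set against all genes. With no filter on low counts, 1 was called in Aire-KO against WT with PBS (Dntt), 2 with spermidine, 2 for topotecan and 1 for Nfe2l2 flox (Cd4). DESeq2 called 1 with PBS and 1 for flox, the Aire and spermidine experiment fitted alone called 1 with PBS among the 7 genes that passed its filter, and limma-voom called 0 over both injections, against 1. Leaving out a library gave 0 to 1 calls over both injections, 0 to 1 for topotecan and 1 to 3 for Aire-GFP+ cells, and 0 in each other comparison. Of the pairs of genes, 3 to 16 passed on leaving out a library, against 13, and 0 passed after taking out group means, in the Aire and spermidine experiment alone, without both topotecan libraries and without the DMSO and topotecan libraries. With the group means taken out, no single pair could have passed alone, so nothing is concluded from that 0. The causes of the other changes were not tested, beyond the fewer libraries of those fits. With the replicate number as a block, 3 genes were called in Aire-GFP+ cells, against 2, since Lck passed (-1.21, adjusted p = 0.0132); it changed no other call, and the numbers are not shown to pair the libraries. Lck also passed there with library totals (-1.33, adjusted p = 0.0381), with no filter and without WT replicate 3. Cd4 in Aire-KO against WT with PBS changed sign, from 0.14 to -0.05 with library totals and to -0.16 without WT PBS replicate 2 (-0.16 to 0.54 over the libraries left out), and was called in none of these fits. Dntt stayed below 0 in each Aire comparison and alternative tried, from -7.54 to -0.78 on the log2 scale. Depth limits Rag1 and Ptcra most, since 10 and 11 of the 16 mTEChi libraries held 3 counts or fewer of them.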
